A study of Mus musculus with 8 samples.

Results

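The genes described here encode 9 secreted cytokines or cytokine antagonists, Il6, Il1a, Il1b, Il1rn, Tnf, Il10, Il18, Lif and Il11, together with Ptgs2, the inducible cyclooxygenase that starts prostaglandin synthesis. They were chosen by name from the probe sets that carry a single gene symbol, and each gene was read by its probe set with the highest mean. All 10 were found, through 14 probe sets, among the 18193 genes tested. Primary mesenchymal cells were grown from the palates of C57BL/6J mouse embryos at embryonic day 13.5 and collected after 2 passages in standard medium. The mutant cultures were Tgfbr2 fl/fl; Wnt1-Cre and the control cultures Tgfbr2 fl/fl, with 4 arrays of each, by the genotype field of the labels, so that both groups carried the floxed alleles and the groups differed in Cre. The sample titles call the controls Tgfbr2 wildtype. The stated question was what impaired TGF-beta signalling does to the metabolism of palatal mesenchyme. Wnt1-Cre acts in the neural crest lineage, from which palatal mesenchyme descends, and leaves cells of other origins, such as macrophages, with their floxed alleles intact. Whether each array came from a separate embryo is not stated in the labels, and the p-values therefore describe only the spread among these samples, part or all of which may be technical.

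Interleukin 1 alpha and beta, tumour necrosis factor and interleukin 18 are alarm cytokines that myeloid and stromal cells release on injury or infection, and Il1rn encodes the antagonist that blocks the interleukin 1 receptor. Il6, Lif and Il11 belong to a family that signals through the shared receptor chain Il6st and the transcription factor STAT3, and fibroblasts are a common source of all of them. Il10 encodes a cytokine that restrains myeloid cells. Many of these genes are switched on quickly by NF-kappaB and AP-1 factors, and TGF-beta is known as a restraint on macrophage activation and as an inducer of Il11 in fibroblasts.

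Promoters are shown for Lif, Il1a, Il11 and Il18, whose slopes on the macrophage signal passed the test given further on, and for Il6, a relative of Lif and Il11. RefSeq sequence of the GRCm38.p6 assembly was found for 9 of the 10 genes; Il10 was not matched. Each line gives the 250 bases before an annotated gene start, 5′ to 3′ on the gene's strand. Capitals mark matches on either strand to 5 motifs, in which N is any base. They were the AP-1 letters TGANTCA, the cyclic AMP response core ACGTCA and the shortened NF-kappaB letters GGANTTTCC. The others were the C/EBP letters TTGCNNAA and the core promoter letters TATAAA. No matches overlapped in these windows. Il6 lies at chr5:30012864-30013113 on the plus strand, Lif at chr11:4257318-4257567 on the plus strand, and Il1a at chr2:129309973-129310222 on the minus strand. The Il11 window shown, of 2 in the table, is chr7:4778142-4778391 on the minus strand and is the one with a match. Il18, at chr9:50554450-50554699 on the plus strand, is shown because its slope had the opposite sign to those of Lif, Il1a and Il11.
Il6: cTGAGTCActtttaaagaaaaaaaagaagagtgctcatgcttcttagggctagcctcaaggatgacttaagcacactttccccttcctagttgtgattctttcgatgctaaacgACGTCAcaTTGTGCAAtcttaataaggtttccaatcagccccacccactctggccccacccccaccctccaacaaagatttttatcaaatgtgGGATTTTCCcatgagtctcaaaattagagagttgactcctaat
Lif: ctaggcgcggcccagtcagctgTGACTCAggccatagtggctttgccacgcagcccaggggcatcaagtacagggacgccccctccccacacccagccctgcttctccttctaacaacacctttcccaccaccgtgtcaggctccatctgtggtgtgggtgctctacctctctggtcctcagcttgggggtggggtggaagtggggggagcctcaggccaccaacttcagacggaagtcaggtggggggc
Il1a: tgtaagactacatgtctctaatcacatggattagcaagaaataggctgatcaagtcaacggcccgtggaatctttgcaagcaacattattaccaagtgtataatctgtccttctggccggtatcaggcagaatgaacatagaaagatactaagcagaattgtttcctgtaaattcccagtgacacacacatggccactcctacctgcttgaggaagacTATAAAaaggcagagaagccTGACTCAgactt
Il11: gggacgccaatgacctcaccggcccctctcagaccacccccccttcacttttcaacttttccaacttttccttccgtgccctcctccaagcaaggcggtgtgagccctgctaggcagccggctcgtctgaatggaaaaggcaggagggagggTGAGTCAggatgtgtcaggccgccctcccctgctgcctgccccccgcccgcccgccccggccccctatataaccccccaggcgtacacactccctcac
Il18: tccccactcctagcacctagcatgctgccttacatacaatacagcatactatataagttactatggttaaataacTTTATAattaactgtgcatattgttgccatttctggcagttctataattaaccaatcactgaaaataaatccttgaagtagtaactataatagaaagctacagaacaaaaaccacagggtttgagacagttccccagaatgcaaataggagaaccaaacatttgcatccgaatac
An AP-1 match stood in these windows of Il6, Lif, Il1a and Il11 and in 1 of 3 windows of Il1rn, which is 5 of the 9 genes with a sequence and 5 of their 12 windows, against 6.75% of all 32851 windows. The match lay between bases -249 and -243 of Il6, -228 and -222 of Lif, -12 and -6 of Il1a, and -98 and -92 of Il11, counted back from the gene start. Il6 alone of the 9 genes also held the NF-kappaB letters, at -43 to -35, which 1.07% of all windows hold. It held the cyclic AMP response core and the C/EBP letters as well, which 6.47% and 9.56% of all windows hold. In Il18 the single match was to the core promoter letters, on the opposite strand at -175 to -170. These letters are held by 12.4% of all windows. Il1a, Il1b and Tnf held them much nearer the start, at -32 to -27 in Il1a, -31 to -26 in Il1b and -29 to -24 in Tnf. Ptgs2 also held the C/EBP letters. The motifs were picked with the expression values known, and a match describes letters in a window, not binding.

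Several facts about the arrays bear on every value below. The mean of the macrophage genes Ctss, Tyrobp and Fcer1g, called macrophage content here, was 14.34, 14.29, 14.40 and 12.86 (log2 intensity) on mutants 1 to 4 and 13.78, 13.93, 12.74 and 12.47 on controls 1 to 4. The values formed 2 separate ranges, with mutant 4 and controls 3 and 4 in the low range and the other 5 arrays in the high range. Mutant and control means were 13.97 ± 0.74 and 13.23 ± 0.73 (SD, n = 4 each), a difference of 0.74 with an exact two-sided permutation p of 0.171, where 4 against 4 arrays can give 0.0286 at the lowest. Of 20 further macrophage markers, 19 lay above the median of all values (6.93) on all 8 arrays, and their mean ran from 10.77 to 13.02 in mutants and from 10.77 to 12.35 in controls. Mesenchymal markers were also bright, 12 of 14 above that median on all arrays, whereas 0 of 6 mast cell genes and 2 of 7 neutrophil genes were. The mean of the 14 mesenchymal markers was 11.79 on mutant 4 and 11.65 on control 3, but 11.12 on control 4. On the other 5 arrays it ran from 11.15 to 11.53. The bioB hybridisation control probe sets read 6.34 to 6.52 on replicates 1 and 2 and 8.24 to 8.79 on replicates 3 and 4 of both genotypes. The targeted gene Tgfbr2 read 12.42 ± 0.47 in mutants and 12.04 ± 0.40 in controls (SD, n = 4). It read 11.66 to 11.73 on the 3 arrays of low macrophage content and 12.38 to 12.76 on the other 5. Which cells gave this signal was not tested. Where its probes lie relative to the floxed exons is not stated in the sources at hand, so that these values do not check the genotypes.

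Between genotypes, 0 of the 10 genes passed limma's test after Benjamini-Hochberg adjustment over all genes, against 0.0879% of all genes (0.022% higher and 0.066% lower in mutants). At an unadjusted p under 0.05 there were 3, Il10 and Tnf with higher means in mutants and Il1rn with a lower mean, against 15.5% of all genes (5.84% higher and 9.69% lower). For the same 3 genes the ranges of mutant and control arrays were separate, as for 8.07% of all genes (2.89% with mutants above and 5.18% below). The median difference over the 10 genes was -0.22 on the log2 scale, with 7 of 10 negative, beside -0.00778 over all genes tested. Of the 10 genes, 4 passed without mutant 4 (Il6, Il1rn, Tnf and Il10), where 7.23% of all genes passed, and 3 passed with array weights, where 8.08% did. With any other single array left out 0 of the 10 passed in limma. Within the 4 arrays with low bioB controls 2 passed (Il6 and Il10), beside 11.5% of all genes. That fit set mutants 1 and 2 against controls 1 and 2, the closest pair of arrays in each genotype. Their root mean square log2 differences over all genes were 0.21 and 0.19, against 0.30 and 0.38 for the next closest pairs. The p-values of that fit rest on this small spread.

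**Figure D1:**
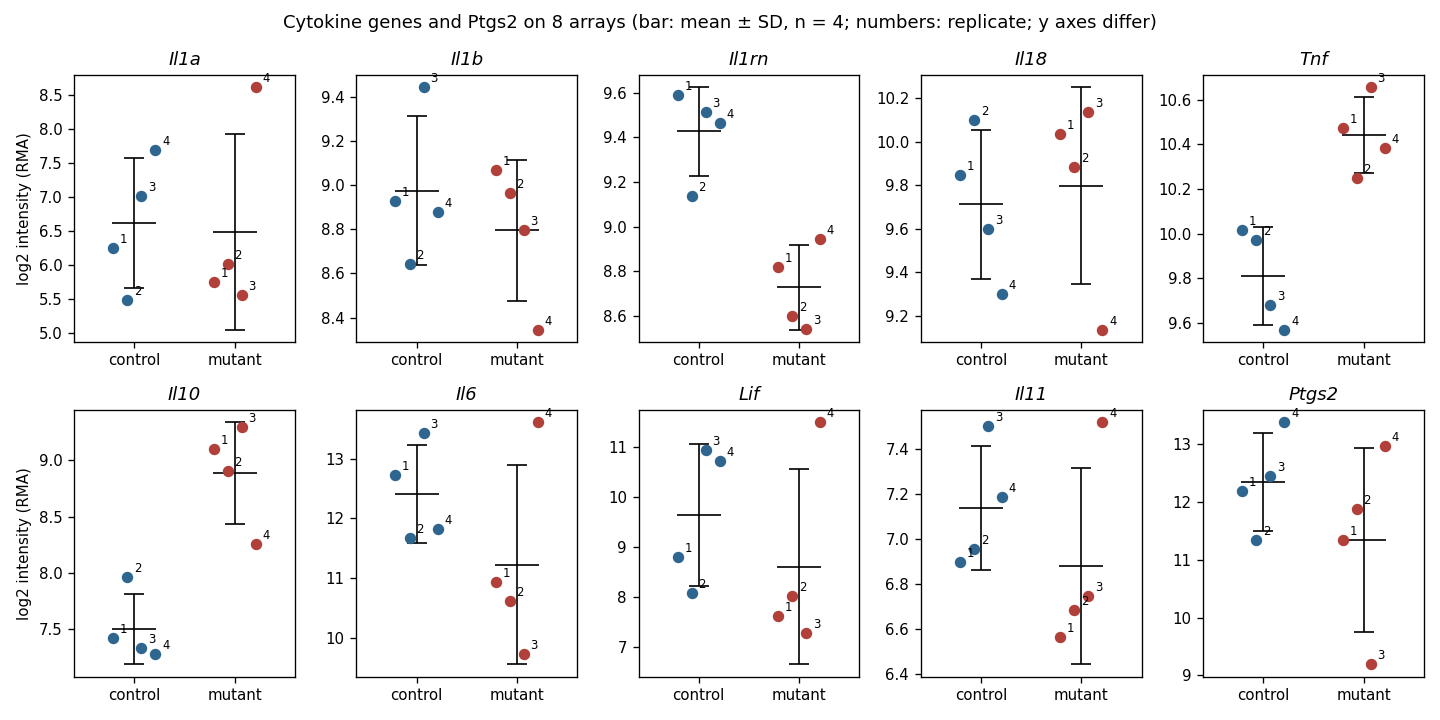
Log2 intensity (RMA) of each of the 10 genes on the 4 control and 4 mutant arrays, with the mean and SD of each group as bars and replicate numbers beside the points. Il10 and Tnf were higher and Il1rn lower on all 4 mutant arrays than on any control array. Mutant 4 lay above the other mutants for Il1a, Il6, Lif, Il11, Ptgs2 and Il1rn, and below them for Il10, Il18 and Il1b.

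Il10 had the largest difference of the 3 genes without overlap. Its log2 intensities were 9.10, 8.90, 9.30 and 8.26 on mutants 1 to 4, and 7.42, 7.96, 7.34 and 7.28 on controls 1 to 4. The lowest mutant, mutant 4, lay above the highest control, control 2. The mutant mean was 8.89 ± 0.45 and the control mean 7.50 ± 0.31 (SD, n = 4), a difference of 1.39 (SE 0.24, 95% interval 0.84 to 1.94) and 2.62-fold on the linear scale. Adjusted p in limma was 0.120, with a range of 0.0108 to 0.819 over the alternatives. The difference was 1.31 among the arrays with low bioB controls, 1.47 among those with high bioB controls and 1.05 (limma adjusted p = 0.0603) with macrophage content as a covariate. B cell markers were also looked at beside this gene, since B cells are another source of Il10. Of 4 measured, Cd79b, part of the B cell receptor, lay above the median of all values on all arrays and read 9.49 ± 1.22 in mutants and 7.68 ± 0.56 in controls (SD, n = 4), while Ms4a1 and Pax5 lay below that median on every array. Cd79b differed by 1.81, and by 0.98 with macrophage content as a covariate. Its slope on that content was 1.12 (limma adjusted p = 0.0165). Cd79a, the partner of Cd79b in that receptor, read 6.95 ± 0.06 in mutants and 7.12 ± 0.17 in controls (SD, n = 4), a difference of -0.17. The mean of the 4 markers ran from 6.79 to 7.36 in mutants and from 6.44 to 6.87 in controls, and their part in the Il10 result was not tested.

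Tnf read 10.47, 10.25, 10.66 and 10.38 on mutants 1 to 4. On controls 1 to 4 it read 10.02, 9.97, 9.68 and 9.57. Mutant 4 stood among the other mutants here, although its macrophage content was in the low range. The difference was 0.63 (SE 0.13, 95% interval 0.33 to 0.93; limma adjusted p = 0.166, 0.0382 to 0.819 over the alternatives), or 1.55-fold. It was 0.37 among the arrays with low bioB controls, 0.89 among those with high ones and 0.50 with macrophage content as a covariate.

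Il1rn, the interleukin 1 antagonist, differed in the opposite direction. Its brightest probe set read 8.82, 8.60, 8.54 and 8.95 on mutants and 9.59, 9.14, 9.51 and 9.47 on controls 1 to 4. Control 2 was the lowest control and still lay above mutant 4, the highest mutant. The difference was -0.70 (SE 0.13, 95% interval -0.997 to -0.40; limma adjusted p = 0.141, 0.0222 to 0.819 over the alternatives). A dimmer probe set of the gene differed by -0.68, again without overlap. The probe set of nearly the same brightness as the first differed by -0.32, and there control 3, at 8.65, lay below all 4 mutants. With macrophage content as a covariate the brightest probe set differed by -0.58. For Il10, Tnf and Il1rn alike the exact two-sided permutation p was 0.0286, the smallest that 4 against 4 arrays can give, and it was not adjusted for the 10 genes looked at. Separate ranges always give this value, so that it adds nothing to the lack of overlap.

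Il1b and Il1a encode the agonists of the interleukin 1 receptor, and their differences were not tested against that of Il1rn. Il1b read 9.07, 8.97, 8.80 and 8.35 on mutants and 8.93, 8.64, 9.45 and 8.88 on controls 1 to 4, with wide overlap and a difference of -0.18 (SE 0.21, 95% interval -0.65 to 0.29; limma adjusted p = 0.712). Il1a read 5.74, 6.01, 5.55 and 8.61 on mutants and 6.25, 5.48, 7.01 and 7.69 on controls. It was brighter than the median of all values on mutant 4 and controls 3 and 4 and dimmer on the other 5 arrays. The genotype difference of Il1a was -0.13 (SE 0.73, 95% interval -1.81 to 1.55), an interval that would include large changes in either direction. Il18, an inflammasome product related to interleukin 1, read 10.03, 9.88, 10.14 and 9.14 on mutants and 9.85, 10.10, 9.60 and 9.30 on controls, a difference of 0.09 (SE 0.25, 95% interval -0.48 to 0.65). Mutant 4 was the highest array of all for Il1a and the lowest for Il18.

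Il6, Lif and Ptgs2 had the widest spread among arrays. Il6 read 10.94, 10.62, 9.73 and 13.62 on mutants and 12.73, 11.67, 13.43 and 11.83 on controls 1 to 4. Mutants 1 to 3 lay below every control, and mutant 4 lay above them all. The difference was -1.19 (SE 0.79, 95% interval -3.00 to 0.63; limma adjusted p = 0.505, 0.0395 to 0.904 over the alternatives). Without mutant 4 it was -1.99 with adjusted p = 0.0456 in limma. Among the arrays with low bioB controls, mutants 1 and 2 against controls 1 and 2, it was -1.42 (limma adjusted p = 0.0395). Among those with high ones it was -0.95 (adjusted p = 0.904). With macrophage content as a covariate the Il6 difference was -0.28.

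Lif read 7.62, 8.02, 7.26 and 11.50 on mutants 1 to 4 and 8.80, 8.06, 10.93 and 10.72 on controls 1 to 4. Mutants 1 to 3 again lay below every control and mutant 4 above them. The difference was -1.03 (SE 1.03, 95% interval -3.38 to 1.32; limma adjusted p = 0.665), and it was -1.99 (adjusted p = 0.128) without mutant 4. With macrophage content as a covariate it was 0.64 (limma adjusted p = 0.298), the opposite sign. A second, dimmer probe set of Lif differed by -0.25. Il11, the relative of Lif and Il6 that TGF-beta induces in fibroblasts, had a narrow range near the median of all values, 6.56, 6.68, 6.74 and 7.52 on mutants and 6.90, 6.95, 7.50 and 7.19 on controls. Its difference was -0.26 (SE 0.23, 95% interval -0.77 to 0.26; limma adjusted p = 0.616), and 0.07 with macrophage content as a covariate.

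Ptgs2 read 11.34, 11.89, 9.19 and 12.98 on mutants and 12.20, 11.34, 12.46 and 13.39 on controls 1 to 4. Mutant 3 was the lowest array and control 4 the highest, and the genotypes overlapped. The difference was -0.996 (SE 0.77, 95% interval -2.75 to 0.76; limma adjusted p = 0.566), -0.15 among the arrays with low bioB controls and -1.84 among those with high ones. It was -1.54 without mutant 4 and -0.04 with macrophage content as a covariate. The second, dimmer probe set of Ptgs2 differed by -1.44 (limma adjusted p = 0.478).

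**Figure D2:**
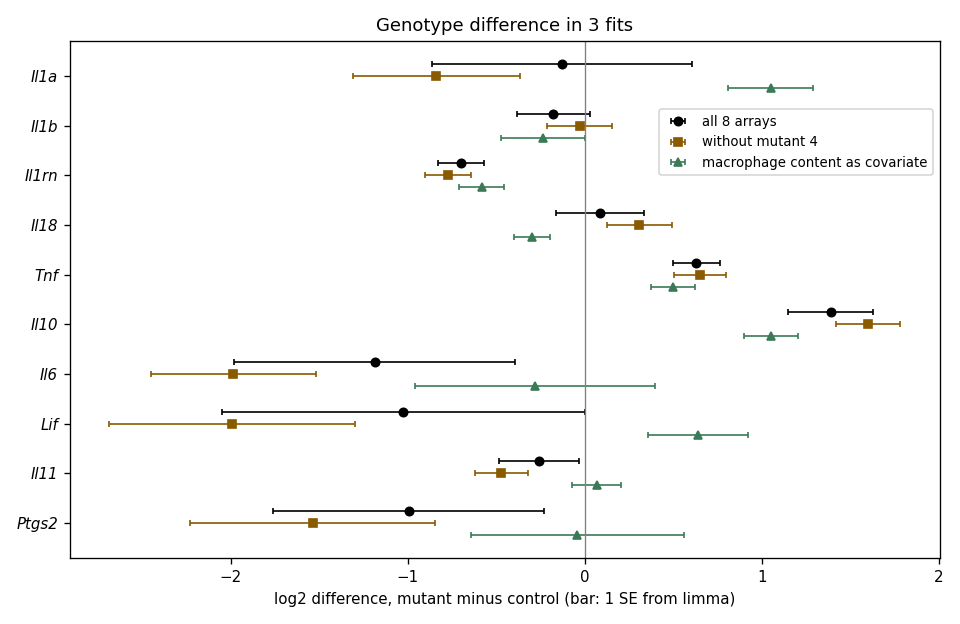
Genotype difference of each gene (log2, mutant minus control) from limma with all 8 arrays, without mutant 4, and with macrophage content as a covariate; bars are 1 SE. Il10, Tnf, Il1rn, Il6, Ptgs2 and Il1b kept their side of 0 in all 3 fits, whereas Il1a, Il18, Lif and Il11 had the opposite sign with the covariate.

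Each gene was then set against macrophage content. In limma with genotype in the fit, 5 of the 10 genes had a slope past the threshold, 2 positive and 3 negative, beside 13.8% of all genes (7.38% positive and 6.45% negative). Macrophage content lay in 2 separate ranges of 3 and 5 arrays, so no correlation over the 8 arrays is given, and the slopes rest mostly on the distance between those ranges. No slope was fitted within either range. The arrays are bulk RNA, in which fewer cells of a type and less RNA per cell cannot be told apart. The ranges also follow the bioB controls on every array except mutant 3, and the slopes were therefore refitted with the bioB set as a block.

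Lif had the steepest slope, -2.25 log2 units per log2 unit of macrophage content (SE 0.19, limma adjusted p = 0.000397). Its levels were 10.72 to 11.50 on the 3 arrays of low macrophage content and 7.26 to 8.80 on the other 5. Il1a followed at -1.59 (SE 0.16, adjusted p = 0.000835 in limma), with 7.01 to 8.61 on the 3 arrays and 5.48 to 6.25 on the 5. Il11 had a slope of -0.44 (SE 0.09, adjusted p = 0.0196 in limma). With the bioB set as a block the slopes were -2.53 for Lif (limma adjusted p = 0.00585), -1.86 for Il1a (0.00735) and -0.38 for Il11 (0.241). Without mutant 4, the only mutant array of low content, they were -1.90 for Lif (limma adjusted p = 0.00549), -1.26 for Il1a (0.00936) and -0.29 for Il11 (0.199), so that the call for Il11 was lost in both fits.

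Il6 and Ptgs2 had slopes of -1.23 (SE 0.46, limma adjusted p = 0.116) and -1.29 (SE 0.41, adjusted p = 0.0743), neither past the threshold. Control 4, with the lowest macrophage content, read 11.83 for Il6, below the 13.43 of control 3 and the 13.62 of mutant 4. Without control 4 the Il6 slope was -1.84 (limma adjusted p = 0.00554, 0.00554 to 0.771 over the alternatives), and without mutant 4 it was -0.28. The Ptgs2 slope was -2.57 with the bioB set as a block (limma adjusted p = 0.00285) and -1.11 without mutant 4 (adjusted p = 0.324). Ptgs2 also passed without mutant 3, with a slope of -0.98 (limma adjusted p = 0.0124).

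Positive slopes past the threshold were those of Il18, at 0.52 (SE 0.07, limma adjusted p = 0.00295), and Il10, at 0.45 (SE 0.10, adjusted p = 0.0260). The slope of Il18 was 0.64 with the bioB set as a block and 0.45 without mutant 4, both past the threshold. That of Il10 was 0.64 (limma adjusted p = 0.0510) and 0.34 (adjusted p = 0.223) in those fits, neither past it, and its call was also lost without mutant 1 (adjusted p = 0.0568) or control 2 (0.0959). Il11 was likewise lost without control 1 (limma adjusted p = 0.0536). Tnf, Il1rn and Il1b had slopes of 0.18, -0.16 and 0.08, with adjusted p of 0.192, 0.265 and 0.787 in limma. Mutant 4 and control 3 were close in macrophage content, at 12.86 and 12.74. They read 10.38 and 9.68 for Tnf, and 8.95 and 9.51 for Il1rn.

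**Figure D3:**
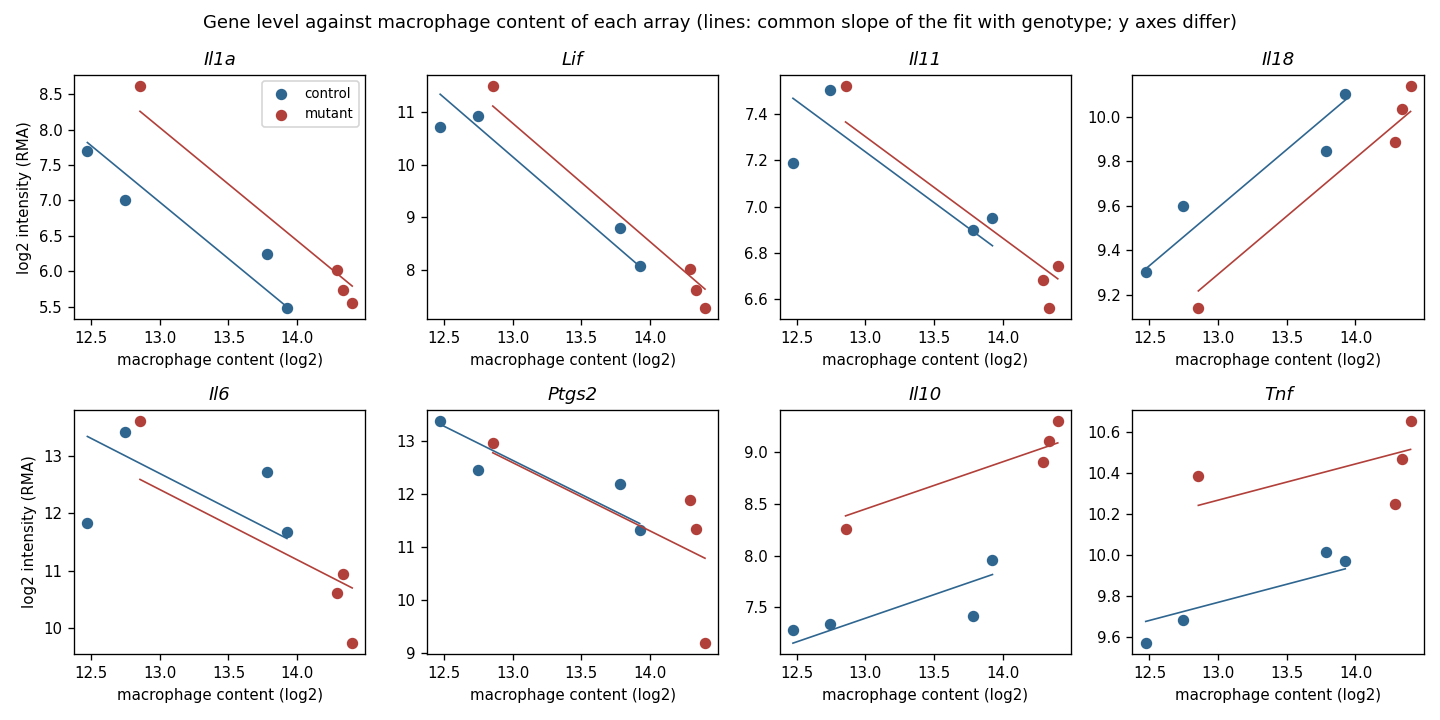
Log2 intensity of 8 of the genes against macrophage content (mean log2 intensity of Ctss, Tyrobp and Fcer1g), 1 point per array, with the common slope of the limma fit drawn through each genotype's mean. Lif, Il1a and Il11 sloped down and Il18 sloped up, while for Il10 and Tnf the mutant points lay above the control points throughout.

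The receptors of these cytokines are given from a list of 13 genes, of which 12 were measured. None passed the genotype test over all genes in limma; at an unadjusted p under 0.05 there were 3 of 12, all higher in mutants, beside 5.84% of all genes higher and 9.69% lower, and the median difference was 0.07. Il10ra, the ligand-binding chain of the Il10 receptor, differed by 1.24 (SE 0.44) and its partner Il10rb by 0.52 (SE 0.19), with limma adjusted p of 0.256 and 0.271. Il6ra differed by 0.19 without overlap of the genotypes (limma adjusted p = 0.268), and Il18rap, the accessory chain of the Il18 receptor, by -0.73 (adjusted p = 0.378). Over the 6 gene lists given here and below, 6 of 93 genes had no overlap of the genotypes, beside 8.07% of all genes. Slopes on macrophage content past the threshold were positive for Il10ra (0.84), Il10rb (0.40) and the tumour necrosis factor receptor gene Tnfrsf1b (0.48), and negative for Il18rap (-0.81). Of all genes, 7.38% had a positive and 6.45% a negative slope past it. Without mutant 4 none of the 3 positive slopes was past the threshold in limma, where 3.77% of all genes had a positive and 2.14% a negative slope. The negative calls in this list numbered 4 without control 4, where the shares were 8.19% positive and 8.04% negative.

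Genes that process or neutralise the cytokines gave 0 of 9 past the genotype test in limma, with 3 higher and 1 lower in mutants at an unadjusted p under 0.05 (5.84% and 9.69% of all genes) and a median difference of 0.57. Tnfrsf11b, the decoy receptor osteoprotegerin, differed by -0.62 (SE 0.15) and Gsdmd, whose cleaved product forms the pore that releases interleukin 1 beta, by 0.57 (SE 0.15), both without overlap and with limma adjusted p of 0.187 and 0.190. The inflammasome adaptor gene Pycard differed by 1.51 (adjusted p = 0.309) and the DNA sensor gene Aim2 by 0.83 (adjusted p = 0.314). Slopes past the threshold were all positive: Pycard 1.42, Casp1 1.22, Aim2 0.73 and Adam17, which sheds tumour necrosis factor from the membrane, 0.47. These were 4 of 9 genes, beside 7.38% of all genes with a positive and 6.45% with a negative slope past the threshold. Casp1 encodes the protease that cleaves the precursors of interleukin 1 beta and interleukin 18, whose genes had slopes of 0.08 and 0.52.

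Of 19 measured genes of the NF-kappaB pathway, 0 passed the genotype test in limma, and the median difference was -0.06. At an unadjusted p under 0.05, 3 were higher and 0 lower in mutants, beside 5.84% and 9.69% of all genes. Counted in either direction, the share was close to the 15.5% of all genes. Nfkbiz, an inducible coactivator of Il6, differed by 0.60 (SE 0.19, limma adjusted p = 0.211) and Ikbkb by 0.26 without overlap. The inhibitory kinase relative Irak3 differed by 0.80 and Myd88 by 0.37. Slopes in this list had both signs, with 3 of 19 positive and 5 negative past the threshold, beside 7.38% and 6.45% of all genes. Nfkbiz (0.37), Irak3 (0.65) and the adaptor Myd88 (0.35) were positive, and Nfkb2 (-0.64), Nfkbib (-0.52), Rela (-0.25), Nfkbia (-0.21) and the feedback inhibitor Tnfaip3 (-1.01) were negative. The 5 negative calls became 1 when any of mutants 1, 2 and 4 or controls 1 to 3 was left out, 4 without mutant 3 and 9 without control 4. The 3 positive ones became 1 without mutant 4 and 2 without control 1 or 2. Over all genes, 3.77% were positive and 2.14% negative without mutant 4, and 8.19% and 8.04% without control 4. In the JAK and STAT3 list 0 of 9 passed between genotypes in limma, and 0 had an unadjusted p under 0.05; Tyk2 differed by 0.39, Ptpn11 by -0.19, Bcl6 by 0.46 and the feedback inhibitor Socs3 by 0.31. Bcl6 had a positive slope (0.63) and Jak1 a negative one (-0.26), whose call was lost without mutant 1, 2 or 4 or control 1 or 2. With 1 of 9 genes in each direction, the counts were close to the 7.38% and 6.45% of all genes.

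Around Ptgs2, 18 genes of prostaglandin synthesis, export, breakdown and reception were measured. None passed the genotype test in limma, and the median difference was 0.08. At an unadjusted p under 0.05, 2 were higher and 0 lower in mutants, beside 5.84% and 9.69% of all genes (15.5% in either direction). Abcc4, a transporter that exports prostaglandins, differed by 0.71 (SE 0.15) without overlap, and Ptger4, a receptor for prostaglandin E, by 0.98 (SE 0.25), with limma adjusted p of 0.167 and 0.187. The prostacyclin synthase gene Ptgis differed by -0.80 and the prostaglandin D synthase gene Hpgds by 1.09. Slopes ran both ways, with 4 of 18 positive and 2 negative past the threshold, beside 7.38% and 6.45% of all genes. Pla2g4a, which frees arachidonic acid for Ptgs2, had -0.77 (limma adjusted p = 0.00299) and Ptges, which makes prostaglandin E from its product, -0.91 (adjusted p = 0.00988). Hpgd, which breaks prostaglandins down, had 1.85, Hpgds 1.30, the thromboxane synthase gene Tbxas1 0.58 and Ptger4 0.52. The negative calls numbered 1 without mutant 4 and 4 without control 4, where 2.14% and 8.04% of all genes had a negative slope past the threshold. The slopes of Pla2g4a and Ptges had the sign of that of Ptgs2 (-1.29), which did not pass.

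Among 26 other cytokine genes, 0 passed between genotypes in limma, 3 were higher and 1 lower in mutants at an unadjusted p under 0.05, a share close to the 15.5% of all genes, and the median was 0.02. Ltb, lymphotoxin beta, differed by 1.59 (SE 0.33) without overlap, Il15 by 0.89, Il16 by 1.02 and Mif by -0.39, with limma adjusted p between 0.167 and 0.297. The myeloid growth factor genes Csf2 (-1.93), Csf3 (-1.52), Csf1 (-0.89) and Il34 (-0.54) had negative slopes on macrophage content, as did Clcf1 (-0.56), another ligand of the Il6 family, and Lta (-0.29). Il15 (0.55) and Il16 (0.71) had positive ones. These were 6 negative and 2 positive calls among 26 genes, beside 6.45% and 7.38% of all genes. Of the 26 genes, 11 lay below the median of all values (6.93) on every array. Lta was among them, at 5.77 to 6.35, and the mean of Il34 was 6.86. Leaving out 1 array gave 3 to 7 negative calls, the fewest without mutant 4, and 0 to 3 positive calls, with 0 without control 2 or 3. The 3 negative calls without mutant 4 stood beside 2.14% of all genes, and the 7 without control 4 beside 8.04%. Csf2 read 8.55 to 9.96 on the 3 arrays of low macrophage content and 6.14 to 7.13 on the other 5. Over all 6 lists 17 of 93 genes had a positive and 15 a negative slope past the threshold in limma, beside 7.38% and 6.45% of all genes. Between genotypes 0 passed in limma and 16 of 93 had an unadjusted p under 0.05, near the 15.5% of all genes, with 14 of them higher in mutants (5.84% of all genes). Without mutant 4, 3 receptors, 2 processing genes, 2 prostaglandin genes and 3 other cytokine genes passed as higher in mutants, as did Nfkbiz and Tyk2, and Il1r2 and Mif passed as lower. In that fit 3.74% of all genes passed as higher and 3.49% as lower.

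**Figure D4:**
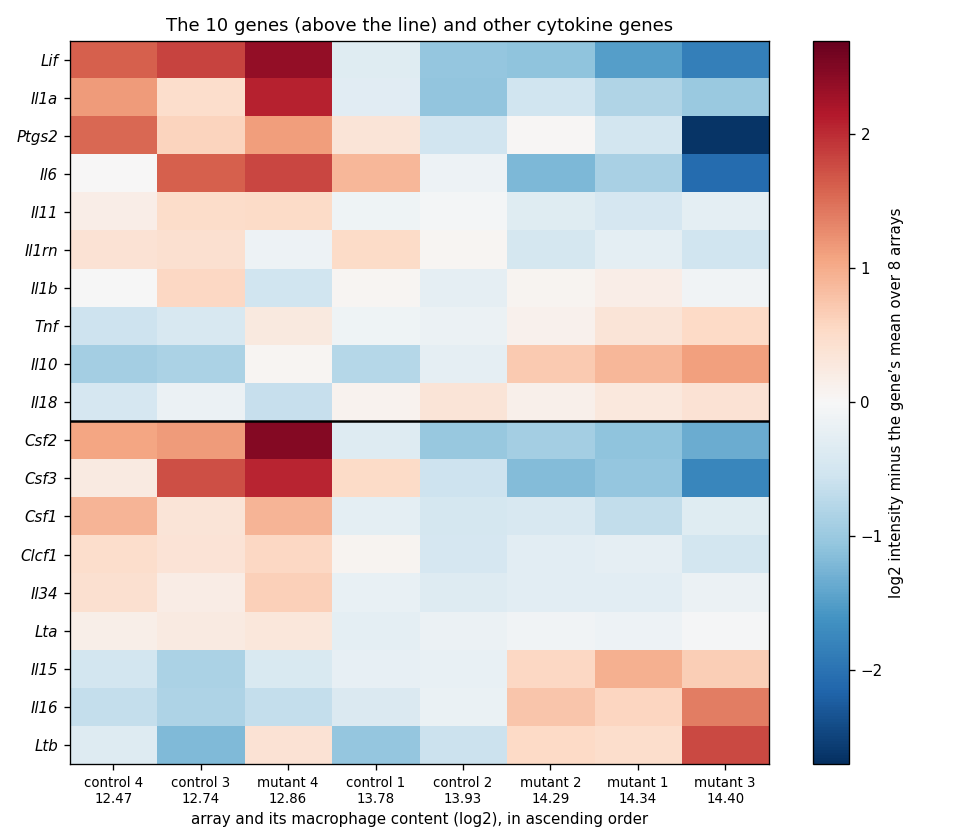
Log2 intensity of the 10 genes and of 9 other cytokine genes minus each gene's mean over the 8 arrays, with arrays in ascending order of macrophage content. Lif, Il1a and Csf2 were highest on control 4, control 3 and mutant 4, and Il10, Il15 and Il16 were highest on mutants 1 to 3.

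The genes with the most similar pattern over the 8 arrays were sought for the 9 members with a mean above the median of all values, among 11706 named genes that also lay above it. Pearson correlations are given as a description, and the points share the 2 ranges of macrophage content. The genes named were the highest of that search over only 8 points. Their correlations are therefore high by selection, and no level reached by chance was computed. Il6 was closest to the chemokine gene Ccl7 (r = 0.986), Csf3 (0.978) and Rab3c (0.976). Lif was closest to Lrrk2 (0.989), Ece1 (0.989) and Pcdh7 (0.986), and Ptgs2 to Ccnyl1 (0.984), Ccn2 (0.976) and Noct (0.975). Il11 ran with Plekha5 (0.991), Kirrel (0.988) and Pomt2 (0.986), and Il18 with Ankrd44 (0.984), Ap2s1 (0.981) and Cybc1 (0.980). Il10 was closest to Il21r (0.993), Nup210 (0.986) and the immunoglobulin heavy chain gene Ighm (0.982), and Tnf to the interferon-induced protease gene Usp18 (0.985), Rpain (0.972) and Tor3a (0.972). Il1rn was closest to Gabpb1 (0.976), Cntrob (0.964) and Chac2 (0.962), and Il1b, which had the loosest match, to Atxn2l (0.956), Tsn (0.899) and Faim (0.893).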

How the data were processed

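RNA from each culture was read on an Affymetrix mouse expression array. The deposited values are log2 intensities per probe set, made with RMA per the submitters' processing notes, with no version stated. They ran from 3.21 to 15.18 and were used as deposited. Groups came from the titles. Of 45101 probe sets, 34945 had 1 gene symbol and 932 had several; symbols were updated by Entrez identifier through a RefSeq table of GRCm38.p6 (34741 matched). The brightest probe set stood for each of 18193 genes. Differences, mutant minus control, and slopes on macrophage content were fitted over all genes with limma 3.58.1 in R 4.3.3 (two-sided, Benjamini-Hochberg over all genes, threshold 0.05) and tested on simulated data; SE and 95% intervals are moderated. All members, Tgfbr2, the 3 macrophage content genes, up to 4 genes per list with the smallest p between genotypes, and the 3 genes most correlated with each member above the median were named. Other list genes with a slope past the threshold, markers, and the motifs were named after their values were seen. Alternatives covered normalization, probe set choice, dim genes, variance model, array weights, control probe sets, replicate numbers, macrophage content and single arrays. The members, lists and tests were chosen with earlier results of these data known. List counts without 1 array were added after seeing the data. Scanner data were not used here.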

Additional observations from a re-analysis of the deposited data

Results flagged for a closer look

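Mutant 4 stood apart from the other 3 mutants in 3 of the 12 measures tested over the mutant arrays, where chance gives about 1 in 20 for a single measure. The 12 measures were read on the same 4 arrays and are not independent, so that their count cannot be set against that rate. Both macrophage measures are among the 3. Il1a, the other, had a slope on macrophage content past the threshold. None of the 12 measures over the control arrays had such an array. Its Il1a value of 8.61 lay far above theirs, with a gap to the nearest array of 0.848 of the whole range, beyond Dixon's 95% critical value for 4 samples. Its macrophage content of 12.86 lay below theirs with a gap of 0.928 of the range, and the mean of the 20 other macrophage markers, 10.77, with a gap of 0.988.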

How the results depend on the processing

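The genes past the threshold between genotypes numbered 16 in all, and 1 with all probe sets tested, 1470 with array weights, 2085 within the arrays with low bioB controls, 0 within those with high ones (947 at an unadjusted p under 0.05 in limma), 2 with the poly-A set as a block, 41 at an adjusted p of 0.1, and 0 to 1316 with 1 array left out. Of the 10 genes, 3 passed with array weights, 2 within the low bioB arrays (Il6 and Il10), and 0 to 4 with 1 array left out. Replicate numbers did not pair the arrays: deviations of same-numbered arrays correlated at 0.47, 0.42, -0.09 and 0.37. With the replicate block, limma called 0 genes between genotypes (3828 at an unadjusted p under 0.05) and 0 for the slope (1525, 6 of them among the 10 genes), so 0 of the 10 passed for the slope. Slope calls over all genes were 860 with the bioB set as a block and 1075 to 3132 with 1 array left out, and 3 to 6 among the 10 genes. Il10, Tnf, Il1rn, Il6 and Ptgs2 kept their sign between genotypes in every alternative run. Signs turned for Il1b (0.0556 with array weights, 0.23 within the low bioB arrays), Il1a (0.0141 within the low bioB arrays, 1.05 with the macrophage covariate, -0.84 to 0.23 with 1 array left out), Il18 (-0.0136 within the low bioB arrays, -0.30 with the covariate, -0.04999 to 0.31 with 1 array left out), Lif (0.64) and Il11 (0.0655) with the covariate, and the slope of Il1b (-0.00426 with no genotype term, -0.48 with the replicate block, -0.26 to 0.21 with 1 array left out). The cause was not tested.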
